A study of Mus musculus with 8 samples.

Results

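The genes described here are 32 genes of megakaryocytes and platelets, given as a list of symbols and read in all 8 RNA-seq libraries of a study of mouse blood stem cells. All 32 were found in the deposited table of 24421 gene symbols, and 31 of them had enough reads to be tested, the exception being Gp6. The libraries came from long-term haematopoietic stem cells (LT-HSCs) sorted from bone marrow as lineage-negative, CD117+, Sca1+, CD150-high and CD48-low cells, and GFP from the Vwf reporter then divided them into Vwf+ and Vwf- cells. The 4 groups were Vwf+ WT, Vwf+ Dnmt3a+/-, Vwf- WT and Vwf- Dnmt3a+/- cells, with 2 libraries each. In every group replicate 1 was a pool of male mice and replicate 2 a pool of female mice, 3 to 4 mice per pool, aged 10 to 12 months. Every group was sorted by the reporter, so the WT cells carry it as well. The labels describe neither the Dnmt3a allele nor the reporter construct, and they do not say whether the Vwf+ and Vwf- cells of a pool came from the same mice. The question of the design was how the 2 kinds of HSC, biased or not biased to megakaryocytes, differ in RNA content and how loss of 1 copy of Dnmt3a, a DNA methyltransferase gene, bears on that.

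Megakaryocytes are the large polyploid marrow cells that shed platelets. As they mature they switch on adhesion receptors (the integrin alphaIIb-beta3, which binds fibrinogen, and the GPIb-IX-V complex, which binds von Willebrand factor), fill alpha granules with adhesive proteins and chemokines, and build the tubulin and actin machinery that forms proplatelets. The transcription factors GATA1 with its cofactor FOG-1 (Zfpm1), FLI1, GFI1B and NF-E2 drive steps of this programme. A share of LT-HSCs already carries RNA of some of these genes, Vwf among them, and such cells are known to yield platelets readily.

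The 8 libraries held 21809278 to 39402418 counts in genes, and the 32 genes took 0.545% to 0.573% of the counts in the 4 Vwf+ libraries and 0.324% to 0.359% in the 4 Vwf- libraries. All 14 LT-HSC marker genes listed for checking the cell type passed the count filter, and their summed level was 2785 to 3780 CPM (a gene's counts over the library total after TMM scaling, the unit used below to compare 1 gene between libraries). Of 14 erythroid markers 13 were in the table and 9 passed the count filter. Their summed level was 52.4 to 69.9 CPM in Vwf+ and 64.9 to 99.9 CPM in Vwf- libraries. The 4 globin genes among the 13 were listed at 0 in all 8 libraries, for which the cause was not tested. Dnmt3a itself was at 175 to 251 CPM in the 4 WT libraries and at 179 to 361 CPM in the 4 libraries labelled Dnmt3a+/-, a log2 difference of 0.38 ± 0.16 (SE) with edgeR's adjusted p = 1. Since the allele is not described, a count over the whole gene does not check the genotype, and Dnmt3a+/- below means the libraries labelled so. One library, Vwf+ Dnmt3a+/- female, stood apart for these genes: 5 of the 31 tested were more than 2-fold above the highest of the other 7 libraries there, against 0.748% of all tested genes. The other 7 libraries each held 0 such genes of the 31, where the share of all tested genes was 1.21% in the Vwf+ WT female library, 0.509% and 0.276% in the Vwf- Dnmt3a+/- female and male libraries, 0.157% in the Vwf+ Dnmt3a+/- male library, 0.101% in the Vwf+ WT male library, and 0.0691% and 0.0503% in the Vwf- WT female and male libraries. Results that rest on that library are given with and without it, except where the text says otherwise.

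Of the 32 genes, 24 had an entry in a RefSeq table of promoters (build GRCm38.p6), and the 250 bases before each start site were searched on both strands for 4 short motifs that factors of this lineage bind. GATAA, the core of GATA sites, was in 10 of the 24 promoters (41.7%) and in 20.4% of all 16514 promoters of that length. AGGAAG, an ETS-type core, was in 12 (50.0%) and in 28.4% of all. TGANTCA was in 5 (20.8%) and in 6.1% of all. It is a loose form of the AP-1 type site of NF-E2, allowing any middle base where that site has G or C. F2r and F2rl2 held it with G in the middle, and Gp1bb, Ppbp and Selp with A or T alone. TGTGGT, a RUNX core, was in 2 (8.3%) and in 12.3% of all. The promoters of 4 genes with some of the largest differences below are shown, since they differ in the motifs they hold: Selp and Clec1b, which were higher in Vwf+ cells, and the neighbouring chemokine genes Pf4 and Ppbp. The stretches are chr1:164115014-164115263 for Selp, chr6:129397047-129397296 for Clec1b, chr5:90772185-90772434 for Pf4 and chr5:90768268-90768517 for Ppbp. All 4 are on the plus strand, each is written 5′ to 3′ up to the base before the start site, and capitals mark motif matches, none of which overlapped another.
Selp: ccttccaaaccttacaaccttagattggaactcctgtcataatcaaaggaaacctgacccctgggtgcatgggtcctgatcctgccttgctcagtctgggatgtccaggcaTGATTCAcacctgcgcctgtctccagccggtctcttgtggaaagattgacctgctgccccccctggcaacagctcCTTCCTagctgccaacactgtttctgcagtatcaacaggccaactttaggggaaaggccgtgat
Clec1b: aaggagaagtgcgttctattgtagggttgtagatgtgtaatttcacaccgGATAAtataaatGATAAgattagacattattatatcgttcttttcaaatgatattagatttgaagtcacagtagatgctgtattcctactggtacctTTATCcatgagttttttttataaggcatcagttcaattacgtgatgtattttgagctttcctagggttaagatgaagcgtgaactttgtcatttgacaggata
Pf4: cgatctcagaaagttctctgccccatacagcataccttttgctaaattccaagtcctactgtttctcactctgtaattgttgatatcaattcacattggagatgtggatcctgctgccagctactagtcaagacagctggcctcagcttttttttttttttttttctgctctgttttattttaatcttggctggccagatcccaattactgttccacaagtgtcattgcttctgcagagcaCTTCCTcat
Ppbp: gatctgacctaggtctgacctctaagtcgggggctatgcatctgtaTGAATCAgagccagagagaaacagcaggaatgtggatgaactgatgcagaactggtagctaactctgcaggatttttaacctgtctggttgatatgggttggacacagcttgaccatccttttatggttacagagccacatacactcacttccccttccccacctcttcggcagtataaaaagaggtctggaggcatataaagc
The Selp promoter held a TGANTCA match, with T as the middle base, and, nearer the start, an ETS core on the minus strand. Clec1b held 3 GATA cores, the third of them on the minus strand. Pf4 held 1 ETS core, at positions -9 to -4 from the start site. Ppbp held 1 TGANTCA match, with A as the middle base, and no ETS or GATA core. A match is a description of letters and not evidence that a factor binds there.

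To set the genes beside each other the authors' TPM values were used, which take out gene length. The 32 genes spanned from a mean over the 8 libraries of 479.8 TPM for Zfpm1, the cofactor of GATA1, to 0.715 TPM for Gp6, the platelet collagen receptor. Next after Zfpm1 came Angpt1, the ligand of the receptor Tie2, with 319.8 TPM, the transcription factor gene Nfe2 with 286, Mmrn1, which encodes the granule protein multimerin-1, with 281, and the ETS factor gene Fli1 with 176. Zfpm1 lay above the others in all 8 libraries, whereas Angpt1 (256 to 356 TPM), Nfe2 (241 to 315) and Mmrn1 (189 to 388) overlapped, so their order does not hold in every library. Vwf, with a mean of 154 TPM, was spread from 23.3 to 294 TPM. The integrin subunit genes Itga2b (mean 119.9 TPM) and Itgb3 (92.8) and the granule gene Selp (82.7) came below these, followed by Pf4 (59.1 TPM), F2r (53.4) and Plek (43.6). Lower in the order, Gp9 had 33.3 TPM, Gp1ba 18.9, Ppbp 6.52, Tubb1 6.15, Gp1bb 4.02 and P2ry12 1.38.

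**Figure D1:**
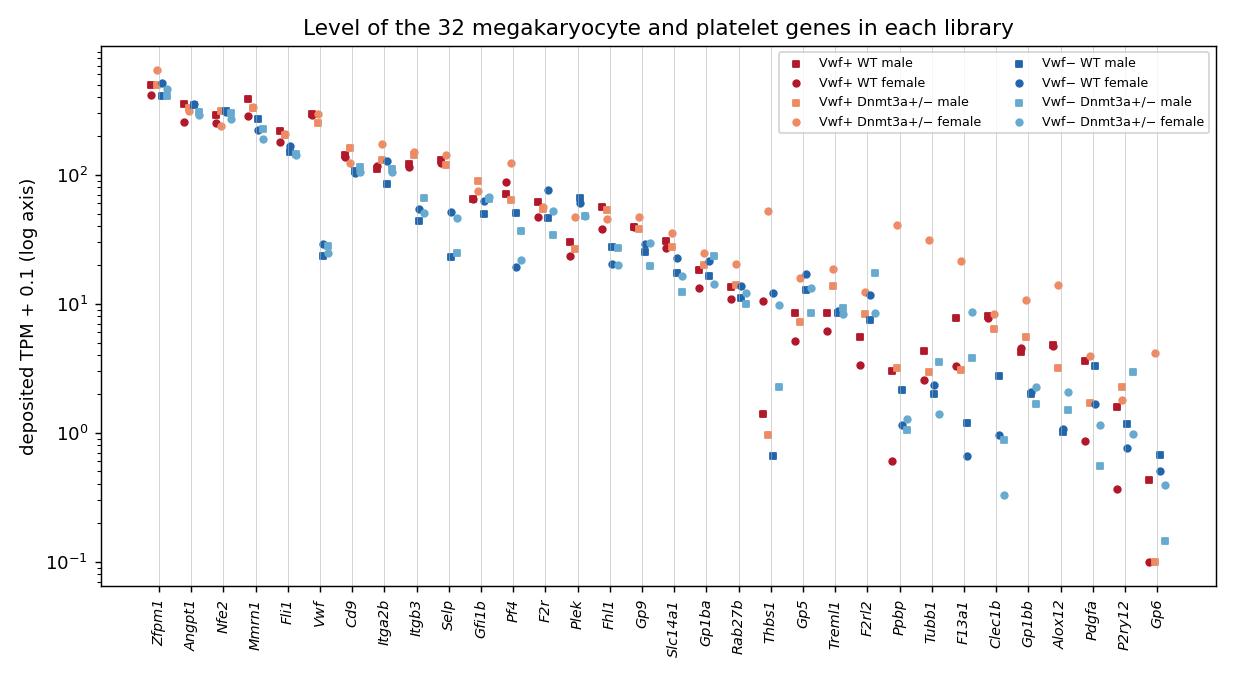
The authors' TPM plus 0.1 on a log axis for each of the 32 genes (x axis, in order of mean TPM), with 1 point per library; colours mark the 4 groups, squares male and circles female pools. The 8 points of Zfpm1, of Angpt1 and of Nfe2 lie close together, the red and orange Vwf+ points lie above the blue Vwf- points for Vwf, Itgb3, Selp and Clec1b, and 1 orange circle stands far above the rest for Ppbp, Tubb1 and Thbs1.

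Averaged over the genotypes, 11 of the 31 tested genes were higher in Vwf+ than in Vwf- LT-HSCs, to very different degrees, 1, Plek, was lower, and 19 were not called (edgeR quasi-likelihood test, 4 libraries against 4, Benjamini-Hochberg adjusted p under 0.05 over all 15917 tested genes). Over all tested genes 5.44% were called, 3.76% higher and 1.68% lower. The highest-read transcription regulators and the receptors for thrombin and ADP were among those not called. The median log2 difference of the 31 genes was 0.61, with 26 estimates above 0, called or not, against a median of -0.0072 over all tested genes. Vwf is among the 11 higher genes, and its reporter divided the cells. The list was also chosen with earlier results of these data known. Its counts beside those of all genes are therefore a description and not an independent test. Replicate number is also sex here, and with it as a block the counts became 19 higher and 1 lower of the 31, where 13.4% of all tested genes were called (7.42% higher, 5.97% lower). Within each of the 4 pairs of 1 genotype and sex, 15 genes were higher in the Vwf+ library, against 16.6% of all genes, and Plek was lower, against 17.8%. The 4 Vwf+ values all exceeded the 4 Vwf- values for 13 of the 31 genes, against 7.71% of all genes, and all lay below them for Plek alone, against 5.33%. In bulk libraries a larger share of cells that carry an RNA and more of that RNA per cell cannot be told apart.

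**Figure D2:**
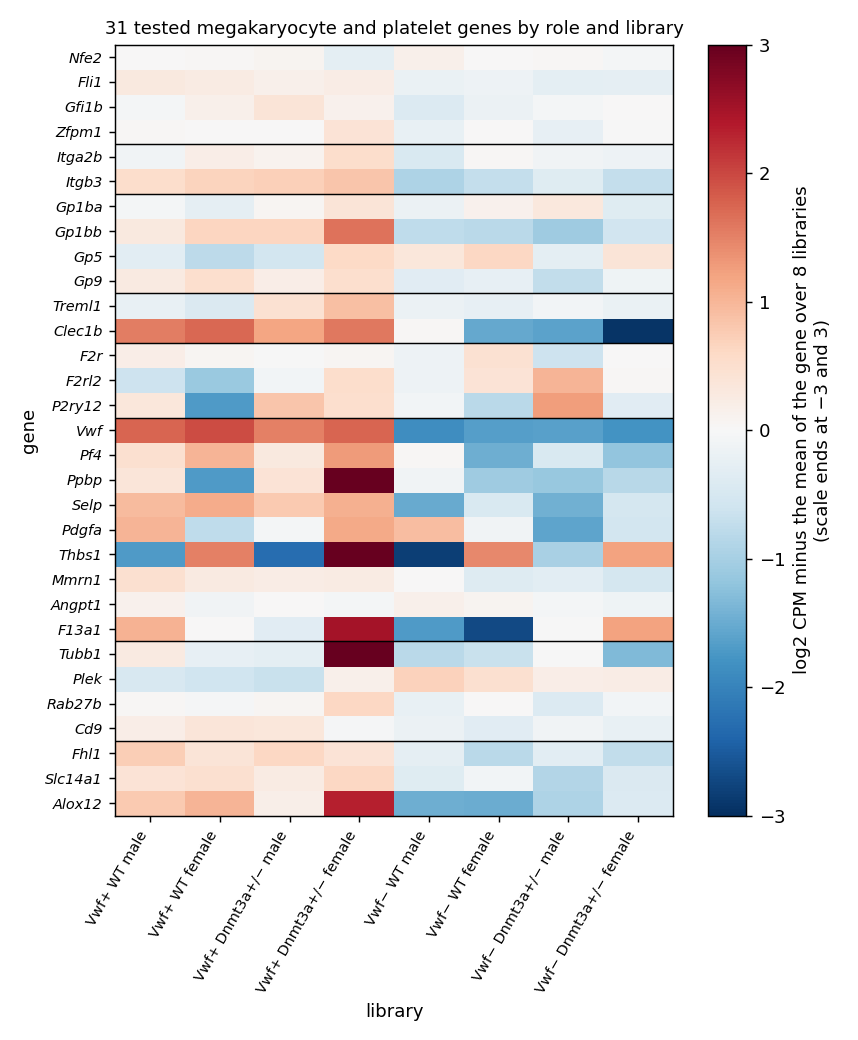
Heat map of log2 CPM of each tested gene minus that gene's mean over the 8 libraries (colour, scale ending at -3 and 3); rows are 31 genes ordered by role with lines between roles, columns are the libraries. The left 4 columns (Vwf+) are redder than the right 4 (Vwf-) for Vwf, Itgb3, Clec1b, Selp, Fhl1 and Alox12, and the Vwf+ Dnmt3a+/- female column is darkest for Ppbp, Tubb1 and Thbs1.

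Vwf encodes the adhesive glycoprotein that tethers platelets to the vessel wall and lies at chr6:125546774-125686679 (mm10, GENCODE M21). It is also the gene whose reporter divided the cells, so its values check the sort. It had 1216 and 1409 CPM in Vwf+ WT, 1034 and 1203 in Vwf+ Dnmt3a+/-, 98.9 and 115 in Vwf- WT and 116 and 104 in Vwf- Dnmt3a+/- cells, always in the order male, female. The fractions were far apart, 11.2-fold on average (log2 3.48 ± 0.14 SE, adjusted p = 2e-06), yet the lowest Vwf- library still held 98.9 CPM. Cd9, the tetraspanin gene next to Vwf at chr6:125460266-125494791, differed less, and its values are given below. Where 4 values of a fraction are listed, they stand for WT male, WT female, Dnmt3a+/- male and Dnmt3a+/- female, in that order.

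The integrin alphaIIb-beta3, which binds fibrinogen and holds platelets together, is made from Itga2b and Itgb3. The beta3 gene Itgb3 had 329.5 and 365 CPM in Vwf+ WT, 377 and 406 in Vwf+ Dnmt3a+/-, 121 and 139.6 in Vwf- WT and 177 and 139 in Vwf- Dnmt3a+/- cells. The Vwf+ libraries all lay above the Vwf- ones, with a log2 difference of 1.36 ± 0.12 (adjusted p = 2e-04). The alphaIIb gene Itga2b, read per length at a similar level, had 179, 220.0, 207 and 276 CPM in the 4 Vwf+ libraries and 139.9, 198, 178 and 172 in the 4 Vwf- libraries, and here the fractions overlapped. Its difference of 0.35 ± 0.15 was not called (adjusted p = 0.25) and was called with the replicate block (adjusted p = 0.028). Beta3 also pairs with the alphaV integrin subunit, which is not among the 32 genes.

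In the GPIb-IX-V complex, the platelet receptor for von Willebrand factor, 1 of the 4 subunit genes was called higher. Gp1bb had 4.05, 5.12, 5.17 and 10.2 CPM in the 4 Vwf+ libraries and 1.91, 1.83, 1.53 and 2.17 in the 4 Vwf- libraries. All Vwf+ values exceeded the Vwf- values, and the Vwf+ Dnmt3a+/- female library was highest (log2 1.68 ± 0.32, adjusted p = 0.012, and 0.052 without that library). In the annotation 91.1% of the exonic length of Gp1bb is shared with Sept5 on the same strand, and Sept5 differed in the same direction (log2 1.15 ± 0.29, adjusted p = 0.0496), so reads of these 2 genes may be split uncertainly. Gp9 had 14.9, 17.6, 14.2 and 17.6 CPM in the 4 Vwf+ libraries and 9.73, 10.5, 7.43 and 11.4 in the 4 Vwf- libraries, without overlap of the fractions. Its difference of 0.72 ± 0.19 just missed the threshold (adjusted p = 0.054) and passed with the block (adjusted p = 0.0026). Gp1ba, the subunit that contacts von Willebrand factor, overlapped between fractions at 18.6 to 31.3 CPM (log2 0.033 ± 0.18, adjusted p = 0.97). Gp5 had 8.59, 6.11, 7.24 and 16.0 CPM in the 4 Vwf+ libraries and 13.5, 16.5, 8.69 and 14.0 in the 4 Vwf- libraries. It was the gene of the complex with a negative estimate (-0.49 ± 0.27, adjusted p = 0.42), and within WT cells it was called lower in Vwf+ cells with the block (-0.98 ± 0.30, adjusted p = 0.047) but not without it (adjusted p = 0.29).

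Among the receptors for collagen, podoplanin and other ligands, Clec1b stood out. It encodes CLEC-2, the platelet receptor for podoplanin, and lies at chr6:129397297-129409335. It was a low gene, with 4.32 and 4.95 CPM in Vwf+ WT, 3.38 and 4.49 in Vwf+ Dnmt3a+/-, 1.49 and 0.450 in Vwf- WT and 0.430 and 0.128 in Vwf- Dnmt3a+/- cells. The Vwf+ libraries lay close together and the Vwf- libraries were spread out below them, the lowest being the Vwf- Dnmt3a+/- female library with 4 reads. The difference was log2 3.01 ± 0.51 (adjusted p = 0.0065). Treml1, which encodes the alpha-granule receptor TLT-1, overlapped between fractions at 4.18 to 10.8 CPM (0.36 ± 0.22, adjusted p = 0.48). Gp6, the collagen receptor gene, was not tested: it had 60 reads in the Vwf+ Dnmt3a+/- female library and 0 to 9 in each of the others. None of the 3 genes for G protein coupled receptors was called without or with the block: F2r and F2rl2, which encode the thrombin receptors PAR1 and PAR3, had differences of 0.13 ± 0.17 (adjusted p = 0.79) and -0.69 ± 0.27 (adjusted p = 0.21), and the ADP receptor gene P2ry12 had 0.036 ± 0.58 (adjusted p = 0.99).

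The granule and secreted proteins were the largest group by number of genes. Of 9 tested genes 4 were higher, Vwf included, and none lower, where 3.76% of all tested genes were higher and 1.68% lower. With the block 6 were higher, where 7.42% of all genes were. Selp encodes P-selectin, the granule membrane protein that reaches the platelet surface on activation, and had 212 and 235 CPM in Vwf+ WT, 188 and 227 in Vwf+ Dnmt3a+/-, 37.9 and 79.3 in Vwf- WT and 40.0 and 75.9 in Vwf- Dnmt3a+/- cells. Every Vwf+ library exceeded every Vwf- library, and among the Vwf- libraries the female pools were above the male pools (log2 difference between fractions 1.89 ± 0.25, adjusted p = 0.0019). Mmrn1 had 844, 729, 709 and 716 CPM in the 4 Vwf+ libraries and 607, 460.5, 488 and 419 in the 4 Vwf- libraries, again without overlap but by a smaller step (0.61 ± 0.14, adjusted p = 0.032). Pf4, the chemokine gene at chr5:90772435-90773383 whose promoter is printed above, had 19.4, 28.4, 17.1 and 33.8 CPM in the 4 Vwf+ libraries and 14.2, 5.04, 10.1 and 6.10 in the 4 Vwf- libraries. Its fractions did not overlap, and the female libraries were the highest of the Vwf+ and the lowest of the Vwf- ones (1.48 ± 0.34, adjusted p = 0.033).

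Ppbp, the chemokine gene next to Pf4 at chr5:90768518-90770063, showed another pattern. Ppbp had 1.48, 0.301, 1.53 and 20.2 CPM in the 4 Vwf+ libraries and 1.06, 0.510, 0.478 and 0.607 in the 4 Vwf- libraries. Outside the Vwf+ Dnmt3a+/- female library its 7 values were all below 2 CPM, and the Vwf+ WT female library had the lowest of all. The difference of 2.26 ± 0.75 was not called (adjusted p = 0.14), was called with the block (adjusted p = 0.018), and with the block but without that 1 library was 0.47 (adjusted p = 0.88). F13a1, which encodes the A chain of the fibrin cross-linking factor XIII, had 14.1, 6.89, 5.35 and 38.9 CPM in the 4 Vwf+ libraries and 2.05, 0.991, 6.81 and 15.9 in the 4 Vwf- libraries. Its fractions overlapped (1.88 ± 0.56, adjusted p = 0.093, with the block 0.003, and 0.098 with the block but without that library). Angpt1 was level at 721 and 611 CPM in Vwf+ WT, 655 and 627 in Vwf+ Dnmt3a+/-, 722 and 687 in Vwf- WT and 625 and 597 in Vwf- Dnmt3a+/- cells (-0.0065 ± 0.12, adjusted p = 0.99). Pdgfa, a growth factor gene, was near the lower limit of the counts at 0.215 to 1.81 CPM (0.85 ± 0.67, adjusted p = 0.62), and Thbs1 is taken up with the sexes below. In the annotation a gene on the opposite strand shares 26.1% of the exonic length of Pdgfa, 14.2% of Angpt1 and 10.7% of Cd9, and for Selp 2 such genes share 9.9% and 4.2%. If the counting ignored strand, reads of such pairs cannot be told apart.

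Of the 4 transcription regulators Fli1 was the 1 that was called, with 323, 314, 295 and 307 CPM in the 4 Vwf+ libraries and 229.8, 238, 215 and 218 in the 4 Vwf- libraries, so that the fractions did not overlap although the step was small (0.46 ± 0.10, adjusted p = 0.027). The call was lost on leaving out either Vwf- WT library or any of the 4 Vwf+ libraries, with adjusted p from 0.029 to 0.14 over the 8 left-out libraries. Gfi1b, a repressor needed for megakaryocytes, had 55.9, 64.7, 75.5 and 63.5 CPM in the 4 Vwf+ libraries and 43.3, 50.9, 55.7 and 58.2 in the 4 Vwf- libraries and was called with the block alone (0.32 ± 0.11, adjusted p = 0.16 without and 0.041 with it). Nfe2 had 384 and 390.2 CPM in Vwf+ WT, 402 and 312 in Vwf+ Dnmt3a+/-, 422 and 383 in Vwf- WT and 391 and 361 in Vwf- Dnmt3a+/- cells. Zfpm1 had 787 and 773 CPM in Vwf+ WT, 771 and 1011 in Vwf+ Dnmt3a+/-, 659 and 774 in Vwf- WT and 650.0 and 754 in Vwf- Dnmt3a+/- cells. Neither separated the fractions: the difference was -0.066 ± 0.12 for Nfe2 (adjusted p = 0.87) and 0.23 ± 0.14 for Zfpm1 (adjusted p = 0.48), and neither was called with the block.

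Plek ran the other way. It encodes pleckstrin, a major substrate of protein kinase C in platelets, and had 57.7, 53.2, 50.3 and 89.4 CPM in the 4 Vwf+ libraries and 130.2, 112, 92.6 and 93.5 in the 4 Vwf- libraries. The Vwf+ libraries all lay below the Vwf- ones, the Vwf+ Dnmt3a+/- female library nearly reaching them (-0.77 ± 0.16, adjusted p = 0.022). Tubb1, the beta-1 tubulin gene of the platelet marginal band, had 3.91, 2.71, 2.63 and 28.7 CPM in the 4 Vwf+ libraries and 1.84, 2.01, 3.20 and 1.25 in the 4 Vwf- libraries. As with Ppbp, 1 library stood far above the other 7 (1.79 ± 0.60, adjusted p = 0.14, with the block 0.021, and 0.77 with the block but without that library). Rab27b, a GTPase gene of granule secretion, had 47.3, 44.8, 47.8 and 71.0 CPM in the 4 Vwf+ libraries and 39.7, 46.2, 34.7 and 43.6 in the 4 Vwf- libraries and was called with the block alone (0.35 ± 0.15, adjusted p = 0.25 without, 0.036 with it and 0.34 with it but without that library). Cd9 had 80.1, 90.1, 88.5 and 68.2 CPM in the 4 Vwf+ libraries and 61.5, 55.4, 64.6 and 60.4 in the 4 Vwf- libraries, with no overlap. Its difference of 0.43 ± 0.12 missed the threshold without the block (adjusted p = 0.059) and passed it with the block (adjusted p = 0.0051).

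The remaining 3 genes, an enzyme, a transporter and a scaffold, were all higher. Fhl1, a LIM-domain protein gene, had 78.2 and 61.7 CPM in Vwf+ WT, 73.2 and 62.3 in Vwf+ Dnmt3a+/-, 39.2 and 26.9 in Vwf- WT and 37.6 and 28.4 in Vwf- Dnmt3a+/- cells. The difference was 1.06 ± 0.16 (adjusted p = 0.0036), with each Vwf+ library above each Vwf- one. Slc14a1, a urea transporter gene, had 56.9, 59.3, 50.8 and 65.7 CPM in the 4 Vwf+ libraries and 32.9, 40.1, 23.0 and 31.4 in the 4 Vwf- libraries, also without overlap (0.89 ± 0.14, adjusted p = 0.0056). Alox12, the platelet 12-lipoxygenase gene, had 6.52, 7.67, 4.25 and 19.3 CPM in the 4 Vwf+ libraries and 1.31, 1.29, 1.96 and 2.81 in the 4 Vwf- libraries. The 4 Vwf+ values were above the 4 Vwf- values even though the Vwf+ Dnmt3a+/- female library was 2.51-fold above the next (2.38 ± 0.43, adjusted p = 0.0094). Of the 12 genes called without the block, 7 were called on leaving out any 1 of the 8 libraries: Vwf, Itgb3, Clec1b, Selp, Fhl1, Slc14a1 and Alox12. Gp1bb lost the call without the Vwf- WT female or the Vwf+ Dnmt3a+/- female library (adjusted p up to 0.053), and Pf4 without either of these or the Vwf+ WT female library (up to 0.12). Plek lost it without the Vwf- WT male or either Vwf+ WT library (up to 0.098), and Mmrn1 without the Vwf- WT female, the Vwf- Dnmt3a+/- female or any of the 4 Vwf+ libraries (up to 0.15).

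Markers of other cells were set beside these differences, where 3.76% of all tested genes were called higher and 1.68% lower. The summed endothelial markers were 684 to 781 CPM in Vwf+ and 537 to 569 CPM in Vwf- libraries, with 5 of 14 tested genes higher (Cldn5, Ramp2, Kdr, Sox18 and Cdh5), and of the 15 listed Sox17 and Flt1 were under 1 CPM in all 8 libraries. The neutrophil and monocyte sum was 362 to 466 CPM in Vwf+ and 225 to 295 CPM in Vwf- libraries, with Prtn3 (0.88 ± 0.12, adjusted p = 0.0018) and Elane (1.89 ± 0.44, adjusted p = 0.033) called higher of 13 tested genes. The other 11 were not called, and the estimates of 5 of them were below 0 (S100a8, S100a9, Camp, Ngp and Ltf). The mast cell and basophil sum ran the other way, 1.59 to 4.14 against 8.86 to 16.1 CPM, as did the T and NK cell sum, 10.4 to 15.3 against 18.6 to 19.7 CPM, with Cd3e, Cd3g, Cd3d, Cd8a and Ncr1 under 1 CPM in all 8 libraries. LT-HSC markers differed too: 7 of 14 were called higher in Vwf+ cells and none lower, led by Slamf1 (1.83 ± 0.12, adjusted p = 2.8e-05), which encodes the CD150 used in the sort. None of 9 tested erythroid markers was called. With the block 1 was higher and 3 were lower, where 7.42% of all genes were higher and 5.97% lower. The part of other cells, or of the sort gate, in the differences of the 32 genes was not tested.

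Within WT cells alone, 4 of the 31 genes were called higher in Vwf+ cells (Vwf, Itgb3, Selp and Fhl1) and 1 lower (Plek), where 1.97% of all tested genes were called (1.48% higher, 0.496% lower). With the replicate block 12 were higher and 2 lower, the lower ones being Plek and Gp5, and 8.35% of all genes were called (4.57% higher, 3.78% lower). Within Dnmt3a+/- cells 5 were higher (Vwf, Itgb3, Clec1b, Selp and Slc14a1) and none lower, where 1.06% of all genes were called (0.892% higher, 0.17% lower). With the block 15 were higher and none lower, where 5.37% of all genes were called (3.52% higher, 1.85% lower). With the block but without the Vwf+ Dnmt3a+/- female library 6 were higher and 1, Plek, lower in Dnmt3a+/- cells, 7 in all, where 2.86% of all genes were called. The median difference of the 31 genes was 0.36 in WT and 0.76 in Dnmt3a+/- cells, against 0.0039 and -0.016 over all tested genes. The median in Dnmt3a+/- cells includes the Vwf+ Dnmt3a+/- female library and was not taken without it. These medians therefore do not show a larger step in Dnmt3a+/- cells.

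For the genes called in either genotype the estimates of the step are set side by side, and the test of their difference is given below. Vwf differed by 3.62 ± 0.21 in WT and 3.35 ± 0.20 in Dnmt3a+/- cells. Itgb3 differed by 1.41 ± 0.17 and 1.31 ± 0.17, Selp by 1.93 ± 0.35 and 1.84 ± 0.35, and Fhl1 by 1.08 ± 0.23 and 1.04 ± 0.22. Clec1b differed by 2.26 ± 0.68 in WT (adjusted p = 0.16) and 3.76 ± 0.74 in Dnmt3a+/- cells (adjusted p = 0.047), Slc14a1 by 0.67 ± 0.20 and 1.10 ± 0.20, and Plek by -1.13 ± 0.23 and -0.41 ± 0.23. Of genes with few reads, called in neither genotype without the block, Alox12 had 2.44 ± 0.61 in WT and 2.31 ± 0.59 in Dnmt3a+/- cells. Its log2 CPM step by pair, male then female, was 2.26 and 2.51 in WT and 1.09 and 2.75 in Dnmt3a+/- cells. Ppbp had 0.19 ± 1.06 in WT and 4.33 ± 1.11 in Dnmt3a+/- cells, and Tubb1 0.78 ± 0.85 and 2.81 ± 0.87. Without the Vwf+ Dnmt3a+/- female library the values in Dnmt3a+/- cells were 1.5 for Ppbp and 0.24 for Tubb1, both with adjusted p = 1, and of the 5 calls in that genotype Vwf and Itgb3 were left, where 0.434% of all genes were called. As many, 2 genes, were called in Dnmt3a+/- cells on leaving out the Vwf+ WT male or the Vwf+ WT female library (0.542% and 0.56% of all genes). In WT cells the count was 2 on leaving out 1 or the other of these (0.89% and 0.402% of all genes), 3 on leaving out the Vwf- WT male or female library (0.937% and 0.368%) and 8 without the Vwf- Dnmt3a+/- male library (3.69%).

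**Figure D3:**
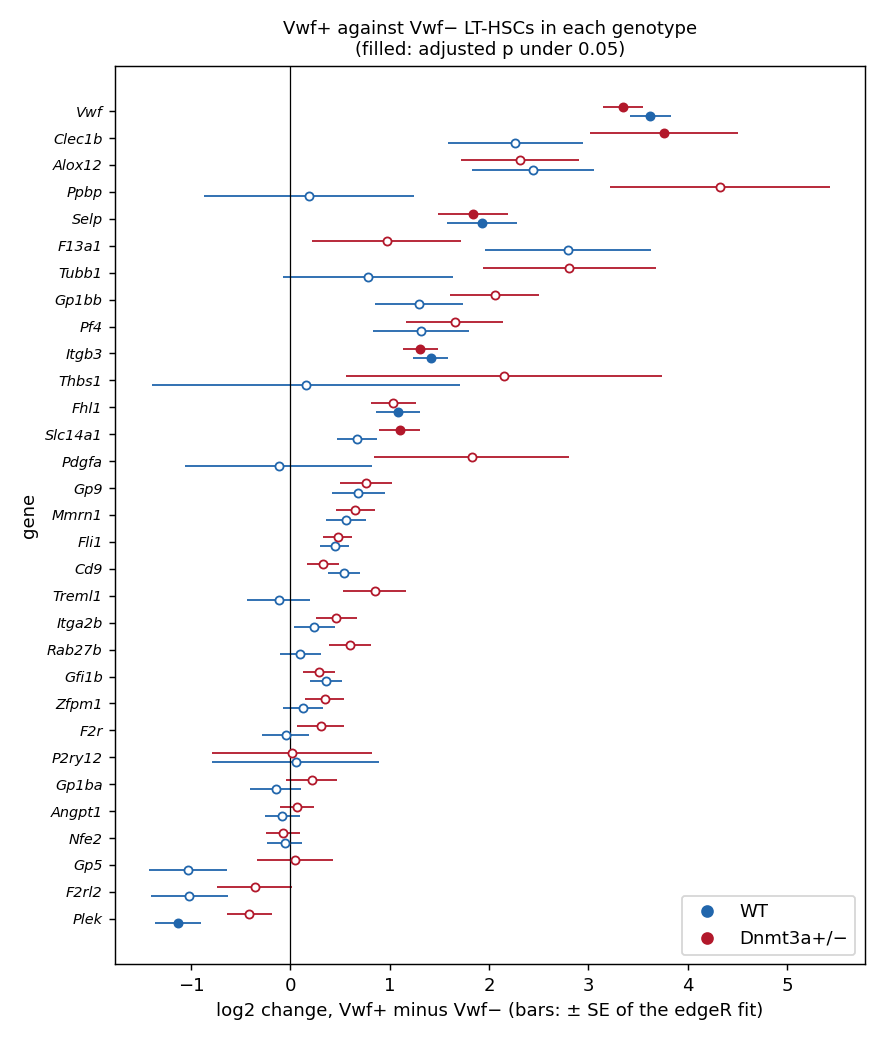
Log2 difference between Vwf+ and Vwf- cells (x axis, positive where Vwf+ is higher) in WT (blue) and Dnmt3a+/- cells (red) for 31 genes, with bars of ± 1 SE of the edgeR fit; filled points have adjusted p under 0.05 in the fit without the block. Vwf, Selp, Itgb3 and Fhl1 lie close together in the genotypes, and Ppbp, Tubb1, Thbs1 and Pdgfa have red points to the right of the blue ones with long bars.

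Tested directly, the Vwf+ against Vwf- difference was not called different between genotypes for any of the 31 genes, with adjusted p = 1 for each without and with the block. By edgeR 0 of 15917 genes (0%) were called, and 159 of them, 1 of the 31 genes included, had an unadjusted p under 0.05. The 1 gene was Ppbp, with a difference of differences of 4.14 ± 1.5 (SE, unadjusted p = 0.0197). DESeq2 and limma on the TPM values also called 0 of the 31 genes, and edgeR with no count filter called 2, Ppbp and Thbs1, where 0.105% of all genes were called.

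The same held for genotype itself. Averaged over the fractions, 0 of the 31 genes differed between Dnmt3a+/- and WT cells, and 0% of all tested genes were called. At an unadjusted p under 0.05 there were 3 of the 31 genes and 516 of all 15917 genes. DESeq2 and limma called 0 of the 31, and so did edgeR with the block, where 0.188% of all genes were called. With no count filter edgeR called 4 (Ppbp, Tubb1, Thbs1 and F13a1), where 0.268% of all genes were called, and each of the 4 was highest in the Vwf+ Dnmt3a+/- female library. For F13a1 the filtered edgeR estimate was larger in Vwf- cells (2.91 ± 0.83, unadjusted p = 0.00572) than in Vwf+ cells (1.08 ± 0.75). Its Vwf- values, male then female, were 6.81 and 15.9 CPM in Dnmt3a+/- and 2.05 and 0.991 CPM in WT cells. The 3 genes under the unadjusted 0.05 were F13a1 (1.99 ± 0.56 higher in Dnmt3a+/-, unadjusted p = 0.00508), F2rl2 (0.79 ± 0.27, unadjusted p = 0.0143) and Treml1 (0.55 ± 0.22, unadjusted p = 0.0331), each with adjusted p = 1. No gene of the 31 had its 4 Dnmt3a+/- libraries all above or all below its 4 WT libraries, where 1.24% of all genes lay above and 0.848% below. Within Vwf+ cells and within Vwf- cells, taken alone, 0 of the 31 genes were called in either, where 0% of all genes were called (0.0377% and 0.0126% with the block), with 4 and 2 of them at an unadjusted p under 0.05, and 363 and 211 of all genes. Vwf itself differed by -0.095 ± 0.13 between genotypes and Itgb3 by 0.22 ± 0.12.

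The Vwf+ Dnmt3a+/- female library held the highest value of several of the genes. Its Ppbp value of 20.2 CPM was 13.2-fold above the next highest library, and Tubb1 at 28.7 CPM was 7.34-fold above. Thbs1, which encodes the granule protein thrombospondin-1, was at 141 CPM and 4.27-fold above the next, and F13a1 was 2.44-fold above. The male library of the same group was at 1.53 CPM for Ppbp, 2.63 for Tubb1, 2.28 for Thbs1 and 5.35 for F13a1, so the male and female libraries of the group were far apart. For Vwf that library, at 1203 CPM, was below both Vwf+ WT libraries.

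Among 110 tested genes of other megakaryocyte and platelet lists, 3 were more than 2-fold above the next library in that library: the receptor gene Cd226 (6.90-fold), the myosin light chain gene Myl9 (9.66-fold) and the protease inhibitor gene Serpine2 (2.02-fold). Of 13 tested neutrophil and monocyte markers 3 were (Ctsg, Ly6c2 and Csf1r, 2.14-fold to 3.83-fold), and the summed level of that list was highest there, 466 CPM against 225 to 433 CPM in the others. So were 1 of 14 endothelial markers (Cdh5, 2.45-fold) and 1 of 8 stroma markers (Col3a1, 2.3-fold), and the summed stroma level was highest there too, 80.9 CPM against 33.4 to 60.3 CPM in the others. These 8 genes were named after their values were seen. What part other cells had in that library was not tested. Without it, 9 of the 31 genes were called between Vwf+ and Vwf- cells, with Gp1bb, Pf4, Fli1 and Mmrn1 lost and Cd9 gained, where 4.35% of all genes were called. With the block 17 were called, 14 higher and 3 lower, where 10.2% of all genes were called.

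**Figure D4:**
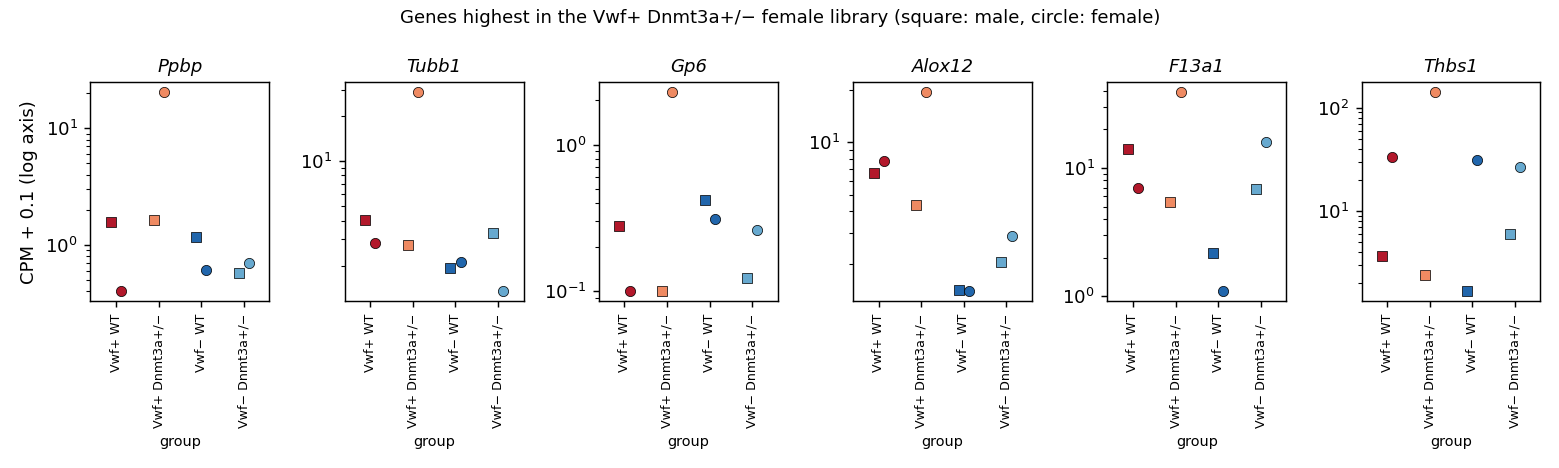
CPM plus 0.1 on a log axis, with its own scale in each panel, for Ppbp, Tubb1, Gp6, Alox12, F13a1 and Thbs1; each point is 1 library, squares are male and circles female pools, and the x axis gives the group. The orange circle (Vwf+ Dnmt3a+/- female) is the highest point in every panel, at 20.2 CPM for Ppbp and 28.7 CPM for Tubb1.

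Male and female pools differed in 3 of the 31 genes, 1 higher and 2 lower in males (edgeR with the 4 group means and sex, adjusted p under 0.05), where 10.5% of all tested genes were called (4.92% higher, 5.62% lower). Thbs1 had 3.51 and 33.0 CPM in Vwf+ WT, 2.28 and 141 in Vwf+ Dnmt3a+/-, 1.56 and 31.2 in Vwf- WT and 5.85 and 26.7 in Vwf- Dnmt3a+/- cells. In every group the female library was several-fold above the male one, and the 4 female values all exceeded the 4 male values (males against females -3.80 ± 0.36, adjusted p = 2.5e-06). It was the 1 gene of the 31 whose sexes did not overlap, against 5.35% of all genes with all males below and 5.91% with all males above. Selp was lower in males by 0.60 on the log2 scale (SE 0.13, adjusted p = 0.0056), and Fhl1, which lies on the X chromosome, was higher in males (0.38 ± 0.10, adjusted p = 0.017). For both, the sexes overlapped over the 8 libraries, and the step between Vwf+ and Vwf- cells was larger than the step between sexes. Sex is also the replicate number here, so that anything else that differed between the replicates cannot be told apart from sex. Thbs1 and Selp were called on leaving out any 1 library, Fhl1 was lost without 1 of 3 Vwf- libraries, and the count rose from 3 to 10 without the Vwf+ WT male library (16.7% of all genes) and to 11 without the Vwf+ WT female library (16.9%).

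**Figure D5:**
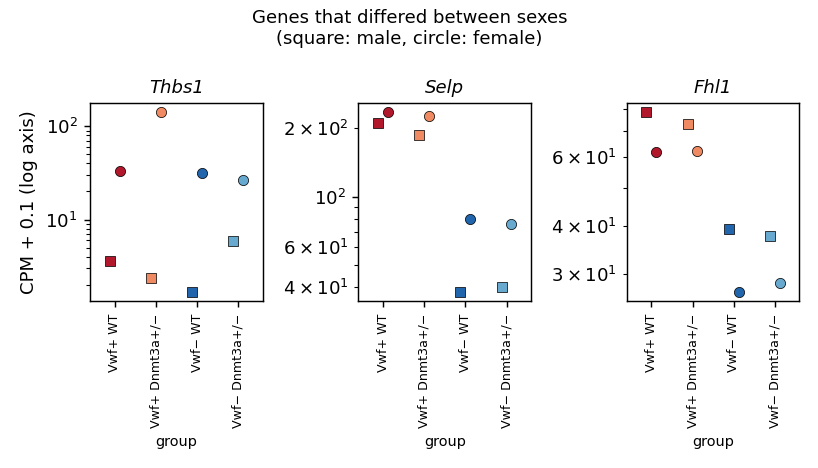
CPM plus 0.1 on a log axis, with its own scale in each panel, for Thbs1, Selp and Fhl1 in each library by group; squares are male and circles female pools. For Thbs1 each circle is above every square, for Selp the circle is above the square of its own group, and for Fhl1 the square is above the circle of its own group.

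Of 110 further tested genes in 7 lists of megakaryocyte and platelet biology, 14 were higher and 3 lower in Vwf+ cells, with a median difference of 0.13, where 3.76% of all tested genes were higher and 1.68% lower. With the block 28 were higher and 6 lower, where 7.42% of all genes were higher and 5.97% lower. In the cytoskeleton list Mylk, the myosin light chain kinase gene, was the 1 called gene of 17 (1.40 ± 0.11, adjusted p = 9.8e-05). In the granule list 4 of 20 were higher: Serpine2 (2.01 ± 0.38), Cxcl12 (1.43 ± 0.34), the metalloprotease inhibitor gene Timp3 (1.22 ± 0.21) and the SNARE gene Snap23 (0.56 ± 0.13). Among other platelet receptors and adhesion proteins 4 of 19 were higher: Cd36 (1.65 ± 0.40), the thromboxane receptor gene Tbxa2r (1.04 ± 0.15), Jam3 (1.00 ± 0.17) and the laminin-binding integrin gene Itga6 (0.52 ± 0.11).

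In the list of other transcription regulators Mef2c (0.69 ± 0.12) and Mecom (0.64 ± 0.11) were higher, and Mkl1, a cofactor of serum response factor, was lower (-0.60 ± 0.14). Of 17 genes 3 were called higher and 1 lower without the block, and 3 higher and 2 lower with it. Gata1 was lower with the block alone (-0.87 ± 0.47, edgeR adjusted p = 0.4 without and 0.035 with it). Its fractions lay apart in the female libraries, whereas its male values lay close together, as listed in the last section. In the signalling list Rap1b, a GTPase of integrin activation, was higher (0.43 ± 0.10), whereas Syk (-1.10 ± 0.15) and Lat (-0.49 ± 0.12), a kinase and an adaptor below collagen and podoplanin receptors, were lower, adjusted p = 0.002 and 0.043. Socs2, a feedback inhibitor of cytokine signalling, was the 1 called gene of 11 in the thrombopoietin list (0.95 ± 0.16, adjusted p = 0.0073). None of 5 eicosanoid enzyme genes was called. In the fit without the block, all called genes of these lists had edgeR adjusted p-values between 9.8e-05 and 0.043.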

How the data were processed

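RNA of 8 sorted LT-HSC pools was made into libraries with a low-input total RNA kit from Takara, per the labels' protocols. Of tools, featureCounts, STAR, Trim Galore and DESeq2 stand in the submitters' processing notes, with the build mm10. Versions and the strand setting of the counting are not given in the sources used here. The authors deposited whole-number read counts per gene symbol and, in a second table, TPM values, which were used as deposited for levels between genes.

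Here counts were tested with edgeR 4.0.16 (R 4.3.3): genes filtered with filterByExpr (minimum count 10), TMM scaling, 4 group means over all 8 libraries, quasi-likelihood F-tests, and Benjamini-Hochberg adjustment over 15917 genes at a threshold of 0.05. CPM are counts over library size on the TMM scale. Log2 differences are given ± SE, the size of the difference over the square root of F. Without the block 4 residual degrees of freedom limit precision, and p-values measure the spread between pools of different sex. With the block, and for sex, p-values measure what is left of that spread once the shared sex difference is taken out. The replicate number marks sex in the labels, so it pairs the libraries of the groups: male minus female differences of any 2 groups correlated at r = 0.13 to 0.30 over 15917 genes, and the block leaves 3 residual degrees of freedom. Sex was tested with the 4 group means and sex. Gene coordinates and overlaps are from GENCODE M21, promoters from RefSeq. The edgeR step was also run on simulated data with 200 changed genes, the same spread for all genes and no sex difference. That run checks the code and does not bear on how reliable the calls in these libraries are.

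The 32 genes, the 7 further lists and the marker lists were chosen with earlier results of these data known. All 32 genes are named. Those past the threshold in any comparison, without or with the block, and the 5 with the highest mean TPM are given in every library. Of each other list up to 4 called genes per direction, with the smallest p, are named, except 1 gene that is not reported here. Alternatives were RLE size factors, no count filter, DESeq2 1.42.0, limma 3.58.1 with trend on log2(TPM + 1), the block, the 4 libraries of a contrast alone, and each library left out. The block without the Vwf+ Dnmt3a+/- female library was added after seeing the data.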

Additional observations from a re-analysis of the deposited data

How the results depend on the processing

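No direction of a called gene reversed, and RLE size factors left every count of called genes within 1.5 times its value. The counts that moved further are given here, of the genes of the set and of all genes tested under each setting (15917 in the filtered edgeR fits of all 8 libraries and 22801 with no filter). With the replicate block, Vwf+ against Vwf- called 20 of the 31 and 2132 of all averaged over genotypes, 14 and 1329 in WT, and 15 and 855 in Dnmt3a+/- cells. It called 30, 6 and 2 of all genes between genotypes on average, in Vwf+ and in Vwf- cells, and it changed no other count of the 31. With no count filter the Vwf contrasts gave 19 and 1649 on average, 12 and 1059 in WT, and 12 and 633 in Dnmt3a+/-. The genotype contrasts then gave 4 (Ppbp, Tubb1, Thbs1 and F13a1) and 61 on average, 3 and 53 in Vwf+, 1 and 27 in Vwf-, and 2 (Ppbp and Thbs1) and 24 for the difference between them, and the cause was not tested. DESeq2 called 1353 of all genes on average, 8 and 729 in WT and 11 and 476 in Dnmt3a+/- for Vwf, and 15, 3 and 2 of all genes for genotype on average, in Vwf+ and in Vwf- cells. Limma on log2(TPM + 1) called 563 of all genes on average, 2 and 103 in WT, 3 and 89 in Dnmt3a+/-, and 1 (Thbs1) and 287 for sex. On that scale the median of all genes shifted by over 0.1 in 3 contrasts, to -0.105 for Vwf in WT cells, 0.117 for genotype in Vwf+ cells and 0.146 for the difference between genotypes. The 4 libraries of a contrast alone gave 10 and 747 in WT and 1 (Vwf) and 42 in Dnmt3a+/- cells. The block without the Vwf+ Dnmt3a+/- female library gave 14 in WT.

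Leaving out 1 library gave, for the 31 genes, 8 to 14 calls on average, 2 to 8 in WT, 2 to 7 in Dnmt3a+/- and 3 to 11 for sex, and 0 to 0 for each genotype contrast and for the difference between genotypes. Over all genes it gave 472 to 1387, 64 to 639, 75 to 291 and 713 to 2922, and 0 to 3 for genotype on average. Of the values of single genes under all these alternatives, 594 stayed on their side of the threshold, 61 lost and 96 gained a call. Genes near or under 2 CPM, such as Ppbp in 7 libraries, Pdgfa in all 8 and P2ry12 in 6, rest on few reads, and a difference there may not be detectable at this depth.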

Other observations

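Between male and female pools, 5 of the 110 tested genes of the wider megakaryocyte and platelet lists were higher in males, 15 were lower and 90 were not called (edgeR with the 4 group means and sex, adjusted p under 0.05), against 4.92% higher and 5.62% lower of all tested genes. In the cytoskeleton list 5 of 17 were lower in males: Myh9 (-0.51 ± 0.13), Actn1 (-0.45 ± 0.11), Actb (-0.44 ± 0.12), Tuba4a (-0.43 ± 0.10) and Was (-0.33 ± 0.095), which was chosen after its values were seen. Gata1, the X-linked master regulator of megakaryocytes and red cells, was lower in males by 1.34 on the log2 scale (SE 0.21, adjusted p = 0.00055). Its female values were 8.22 and 10.8 CPM in the Vwf+ libraries and 22.4 and 20.2 CPM in the Vwf- libraries. Its 4 male values, from both fractions, lay close together at 5.71, 5.0, 6.19 and 5.78 CPM. Every female value exceeded every male value. The cause was not tested.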
